A study of Mus musculus with 25 samples.

Results

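Of 69615 regions bound by CTCF in at least 1 of 4 peak lists from Scid.adh cells, 320 were called in both lists of the line carrying an empty vector and in neither list of the line lacking TCF-1, and 4427 were called in both lists of the line lacking TCF-1 and in neither list with the empty vector. The first group is called EV-only and the second KO-only. These were 0.46% and 6.36% of all regions. A further 38454 regions (55.2%) were in all 4 lists and are called shared, and 26414 (37.9%) fell into other combinations of lists. "Changed" below means a region of either class, by its calls and not by a test. Peaks of the 4 lists had been merged where they touched or overlapped, and a list held a region when 1 of its peaks overlapped it by at least 1 bp.

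Scid.adh is a mouse line from a thymic lymphoma with features of DN3 thymocytes, the precursors that have just committed to the T lineage, and both groups were made in it. The EV group carried an empty vector and kept TCF-1, while the KO group carried a knockout of TCF-1. Each group had 2 lists for CTCF, SMC1, NIPBL and H3K27ac, made by chromatin immunoprecipitation followed by sequencing (ChIP-seq). The EV cells also had 2 lists for TCF-1. For comparison, 4 CTCF lists of NIH-3T3, a mouse embryonic fibroblast line, were used, 2 from untreated cells and 2 from cells induced to express TCF-1. Nothing in the labels says that the lists came from separate cultures or that the knockout was a single clone. Differences between lists may therefore be technical. With 2 lists against 2, the exact permutation p is 0.33 whenever the groups do not overlap, whatever the spread within them. Read totals were not used here, and the depth behind a call is unknown.

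CTCF is a zinc finger protein that binds a directional DNA motif and holds the anchors of chromatin loops. Cohesin is the ring complex that extrudes these loops until it meets CTCF, SMC1 is one of its core subunits, and NIPBL loads it. H3K27ac is a histone acetylation found at promoters and enhancers in use. TCF-1, encoded by Tcf7, is a high mobility group factor that opens chromatin in T cell precursors.

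The promoters that carried both a changed CTCF region and a CTCF-like motif are shown first, because they are the places where a changed region can be read as letters. Among 32817 RefSeq promoter windows (250 bases before to 50 after a transcription start site, GRCm38.p6, which is mm10), 77 had at least 150 bp inside an EV-only region and 114 inside a KO-only region. The motif searched on both strands was a simplified 12-base core of the known CTCF motif, in which some bases are free. It stood in 5 of the 77 EV-only windows (6.49%), in 6 of the 114 KO-only windows (5.26%) and in 384 of 3333 windows inside shared regions (11.5%). All windows held it in 2.43% of cases, and the 26195 windows that touched no CTCF region in 1.27%. Windows were counted per start site, so they are not separate places. Nmnat1 and Mlh3 each gave more than 1 of the 6 KO-only windows, overlapping and with the same match. The 250 bases before the start site follow for 4 EV-only promoters, 5′ to 3′ on the strand of the gene, with the motif match in capitals. They are chr19:43940199-43940448 (minus strand), chr15:80091084-80091333 (plus), chr6:112273508-112273757 (plus) and chr11:51763413-51763662 (plus).
Dnmbp: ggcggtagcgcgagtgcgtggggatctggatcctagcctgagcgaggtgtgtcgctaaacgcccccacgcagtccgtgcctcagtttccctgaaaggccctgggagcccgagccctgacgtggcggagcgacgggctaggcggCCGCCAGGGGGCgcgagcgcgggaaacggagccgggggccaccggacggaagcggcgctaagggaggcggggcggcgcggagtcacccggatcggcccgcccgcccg
Syngr1: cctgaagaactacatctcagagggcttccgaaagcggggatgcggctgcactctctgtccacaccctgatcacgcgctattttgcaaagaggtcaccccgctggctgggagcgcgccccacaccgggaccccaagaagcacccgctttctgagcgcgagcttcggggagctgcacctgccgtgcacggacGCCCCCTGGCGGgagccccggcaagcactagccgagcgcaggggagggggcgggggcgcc
Lmcd1: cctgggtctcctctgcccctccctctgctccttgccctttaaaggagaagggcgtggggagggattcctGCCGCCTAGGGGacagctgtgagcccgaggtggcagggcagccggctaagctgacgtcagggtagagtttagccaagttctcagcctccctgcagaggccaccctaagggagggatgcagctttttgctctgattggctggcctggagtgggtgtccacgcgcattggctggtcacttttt
Sar1b: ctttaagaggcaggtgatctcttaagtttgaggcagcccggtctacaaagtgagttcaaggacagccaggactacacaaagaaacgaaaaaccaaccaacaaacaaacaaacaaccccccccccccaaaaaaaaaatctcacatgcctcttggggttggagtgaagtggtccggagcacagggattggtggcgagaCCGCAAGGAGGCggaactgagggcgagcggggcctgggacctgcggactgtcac
The 3 KO-only promoters shown, 1 window for each of 3 genes, are chr4:149485211-149485460, chr12:85270600-85270849 and chrX:8090492-8090741, all on the minus strand and printed in the same way.
Nmnat1: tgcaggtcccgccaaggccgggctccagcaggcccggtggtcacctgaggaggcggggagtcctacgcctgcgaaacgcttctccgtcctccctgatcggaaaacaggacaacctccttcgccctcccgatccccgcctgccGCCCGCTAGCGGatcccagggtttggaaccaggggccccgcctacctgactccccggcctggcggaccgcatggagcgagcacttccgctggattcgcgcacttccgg
Mlh3: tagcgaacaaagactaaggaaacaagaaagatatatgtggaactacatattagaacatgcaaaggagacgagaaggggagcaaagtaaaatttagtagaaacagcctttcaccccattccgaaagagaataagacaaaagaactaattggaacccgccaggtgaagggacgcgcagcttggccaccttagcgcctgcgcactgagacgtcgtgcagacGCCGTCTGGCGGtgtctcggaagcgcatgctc
Was: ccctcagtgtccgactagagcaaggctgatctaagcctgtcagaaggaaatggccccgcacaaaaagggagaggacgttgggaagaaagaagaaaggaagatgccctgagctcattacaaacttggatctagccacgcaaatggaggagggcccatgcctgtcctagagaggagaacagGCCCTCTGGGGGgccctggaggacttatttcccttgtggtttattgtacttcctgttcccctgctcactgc

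The match ended 96 bases before the start of Dnmbp, a gene for a Cdc42 exchange factor, and 49 bases before that of Syngr1, a gene for a synaptic vesicle protein. It ended 170 bases before the start of Lmcd1, which encodes a LIM domain protein, and 43 before that of Sar1b, which encodes a GTPase of vesicle export from the endoplasmic reticulum. In the KO-only group it ended 97 bases before Nmnat1, a gene of nuclear NAD synthesis, 21 before Mlh3, a mismatch repair gene, and 60 before Was, a gene for an actin regulator of blood cells. In the Dnmbp and Sar1b windows the match was on the strand of the gene, and in the other 5 on the opposite strand. A stricter form of the same core, with 1 more base fixed, stood in 0 of the 77 EV-only windows, which allows a share of up to 3.9% by counting alone. It stood in 0.877% of the KO-only windows, 4.05% of the shared ones and 0.649% of all. A match is a description of letters and not a measured site.

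The EV CTCF lists held 42214 and 53729 peaks and the KO lists 62353 and 55149. Both KO lists were longer than both EV lists. The difference in means (EV minus KO) was -10779.5 peaks, with an exact permutation p = 0.33 (2-sided), the smallest that 2 lists against 2 can give. It was -5022 without EV list 1, -16537 without EV list 2 and -7177.5 without KO list 1. Such a design cannot reach the usual thresholds. After Benjamini-Hochberg adjustment over the 11 comparisons of lists and marks the exact p of 0.33 became 0.611 in each case. The number of changed regions moved when the lists were cut to equal length. With all lists cut to the length of the shortest by dropping their narrowest peaks, there were 1246 EV-only and 1322 KO-only regions. This cut left the shortest list whole and took narrow peaks from the others. List length and width limit thus changed together, and their effects cannot be told apart. A region could also change class because a narrow peak of the other condition was dropped. The full lists gave 320 EV-only regions, so most of the 1246 lay where the full lists also called a KO peak. EV list 1 was the shortest, and 7056 regions were in the other 3 lists but not in it. Without EV list 1, the EV-only count was 3127, and without KO list 2 the KO-only count was 11771. With a list left out, the 1 remaining list of that condition suffices for its class. These counts therefore take in regions called in a single list, and they do not check the regions of the full rule. EV list 2 alone held 2802 regions. Single lists alone held 13613 regions, of which 7308 were in KO list 1.

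**Figure D1:**
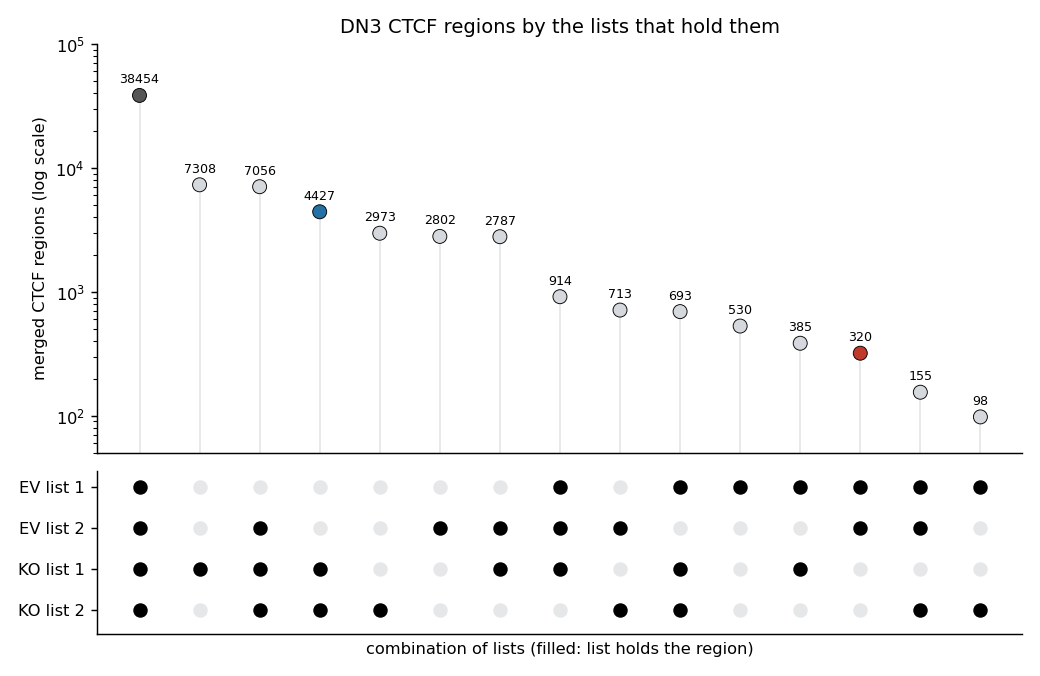
Number of merged DN3 CTCF regions (vertical log axis) for each combination of the 4 lists, with filled dots below marking the lists that hold the regions. The 38454 shared regions (dark grey) outnumber the 4427 KO-only (blue) and 320 EV-only regions (red), and 2 combinations that the rule leaves out (light grey), with 7308 and 7056 regions, are larger than the KO-only group.

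Changed regions were narrow. The median width of the merged region was 326.5 bp for EV-only (quartiles 274.75 and 396.5), 311 bp for KO-only (276 and 351) and 562 bp for shared regions (428 and 725). Measured as a percentile of peak width within its own list, the median EV-only peak stood at 13.2 in EV list 1 and 21.8 in EV list 2, and the median KO-only peak at 19.9 in KO list 1 and 15.6 in KO list 2. Shared regions stood between 53.5 and 67.5 in the 4 lists. The narrowest peaks in every list were 200 bp wide. The files gave CTCF peaks as positions with no height, so width is the nearest available measure of how strong a call was. Median peak width over whole lists was 365 and 382 bp with the vector and 387 and 378 bp in the knockout, values that overlapped (exact permutation p = 0.667).

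The call boundary was close for some members. A peak of the other condition lay within 200 bp of 16 EV-only regions (5%) and 43 KO-only regions (0.971%), and within 1 kb of 46 (14.4%) and 412 (9.31%). The 2 peaks that made a region covered each other over a median of 208 bp in EV-only and 218 bp in KO-only regions. That shared stretch was under 50 bp in 6 EV-only and 12 KO-only regions.

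EV-only regions lay among other CTCF regions about as densely as shared regions did, and KO-only regions lay farther apart from them. The nearest other CTCF region of any kind was at a median of 4448.5 bp for EV-only, 8008 bp for KO-only and 5166 bp for shared regions, and 6991 bp for shared regions of 200 to 400 bp. The nearest shared region was 9220.5 bp away for EV-only and 15290 bp for KO-only. Within their own class, the nearest neighbour was 1676170 bp away for EV-only and 131809 bp for KO-only, distances that also depend on how many regions a class has. With lists of equal length the medians to any CTCF region were 6882.5 bp for EV-only, 10172.5 bp for KO-only and 6706 bp for shared regions. The changed classes can then also hold regions whose narrow peak of the other condition was dropped.

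**Figure D2:**
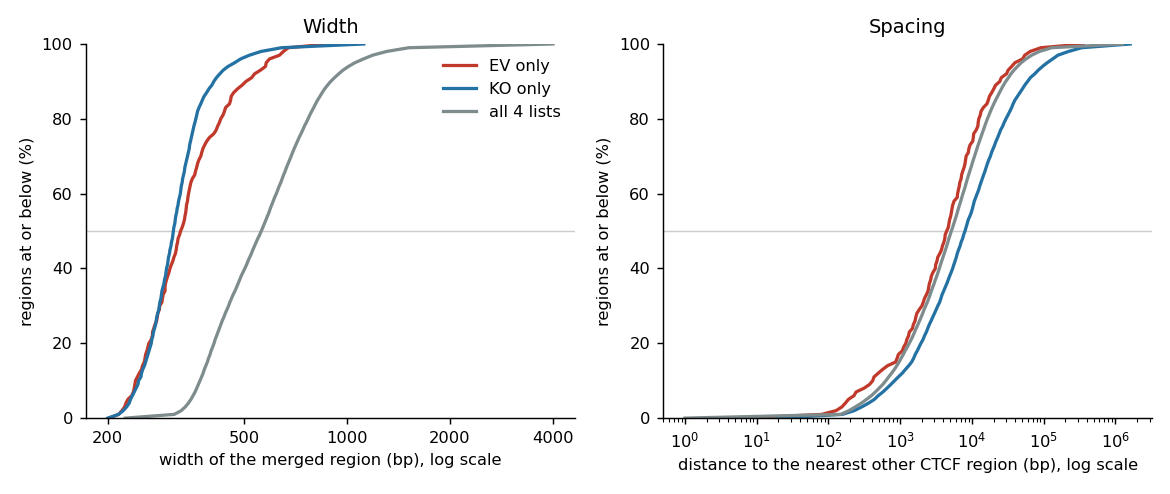
Cumulative share of regions (vertical axis, %) by width of the merged region (left) and by distance to the nearest other CTCF region (right), both on log axes in bp. EV-only (red) and KO-only (blue) regions are narrower than shared ones (grey), which join peaks of more lists. The KO-only curve lies to the right for spacing, with a median of 8008 bp.

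The share at transcription start sites was highest for EV-only regions. A RefSeq start site lay within 1 kb of 91 of 313 EV-only regions (29.1%, 95% Wilson interval 24.3 to 34.3), 273 of 4303 KO-only regions (6.34%) and 11.9% of shared regions. Intervals cover counting error only, and start sites of chromosome 18 were not used here. Shared regions of 200 to 400 bp had a start site in 5.38% of cases. Their median width was 368 bp (quartiles 347 and 385), still above that of either changed class. With lists of equal length the shares were 18.3% for EV-only and 9.08% for KO-only, in classes that can also hold regions whose narrow peak of the other condition was dropped. Gene bodies held 60% of EV-only, 54.8% of KO-only and 55.6% of shared regions.

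Dnmbp and Syngr1, whose promoters are printed above, were among the 10 EV-only regions of highest width rank. The Dnmbp region (chr19:43940091-43940578, over the start site) had CTCF peaks of 412 and 488 bp with the vector and none in the knockout. SMC1 peaks there were 489 and 485 bp wide in the EV lists and were not called in either KO list, and no list had H3K27ac. All 4 CTCF lists of NIH-3T3 called this region. The Syngr1 region (chr15:80090951-80091586, over the start site) had CTCF peaks of 526 and 478 bp. Its H3K27ac peaks of 613 and 721 bp were present in the EV lists alone, whereas SMC1 was called in all 4 lists (477, 519, 323 and 337 bp, in the order EV 1, EV 2, KO 1, KO 2).

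At the start site of Mtch1, a gene for a mitochondrial outer membrane protein (chr17:29347459-29348107), CTCF peaks were 418 and 649 bp in the EV lists. SMC1 was called there in every list (1606, 1418, 2178 and 1522 bp), as was H3K27ac (3319, 3367, 2874 and 3022 bp). The region 238 bp from the start of Iars2, which encodes mitochondrial isoleucyl-tRNA synthetase, had CTCF peaks of 469 and 541 bp and a shared CTCF region 324 bp away. Inside Tmem131l, 46269 bp from its start site (chr3:83993313-83993892), CTCF peaks of 432 and 580 bp came with SMC1 peaks of 281 and 324 bp in the EV lists and none in the KO lists. At the start of Ccdc9, a coiled-coil protein gene, CTCF was 543 and 406 bp and SMC1 615, 926, 762 and 879 bp, and 137 bp from Pacsin2, a gene of membrane remodelling, CTCF was 388 and 438 bp. H3K27ac was in no list at the Pacsin2 region and in EV list 1 alone at the Tmem131l region (1029 bp).

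The widest KO-only region spanned 1121 bp and the widest EV-only region 887 bp. The former (chr10:40164176-40165296) lay 21906 bp from Slc16a10, which encodes an aromatic amino acid transporter, with CTCF peaks of 1121 and 903 bp in the KO lists. The H3K27ac peak over it was 5975 and 5737 bp wide in the EV lists and 21550 and 20871 bp in the KO lists. A region inside Iqcg, a gene of cilia and flagella (chr16:33024778-33025600), had CTCF peaks of 823 and 777 bp. Its H3K27ac peak was 1646 and 2784 bp in the EV lists and 19721 and 18115 bp in the KO lists, and its SMC1 peak was 378 and 414 bp against 1928 and 869 bp. A shared CTCF region lay 489 bp from it. At both places the KO values lay above the EV values without overlap. These regions were picked by CTCF width, and the share of all regions with such an order was not counted. Neither lay at a site called in both TCF-1 lists of the EV cells.

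At the start site of Urod, a heme synthesis gene (chr4:116994359-116995076), the CTCF peaks were 680 and 699 bp and H3K27ac was 2925, 2856, 2434 and 3037 bp in the 4 lists, with a shared CTCF region 152 bp away. A region 265 bp from the start of Degs2, a gene of sphingolipid synthesis, had CTCF peaks of 525 and 577 bp and H3K27ac of 3816, 3865, 5696 and 6043 bp. SMC1 there was 1111, 1181, 2508 and 1719 bp. The KO values of both marks lay above the EV values here, while H3K27ac at Urod overlapped between the groups. The share of all regions with such an order was not counted. SMC1 peaks over shared regions were also wider in the KO lists (medians of 496 and 535 bp) than in the EV lists (429 and 420 bp). Near Gpt2, which encodes a mitochondrial alanine aminotransferase, CTCF peaks of 718 and 542 bp had SMC1 in KO list 2 alone (372 bp). Inside Cadps, a gene of vesicle exocytosis, CTCF was 674 and 496 bp with no H3K27ac in any list.

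Cohesin was called at KO-only regions more often in the KO lists than in the EV lists. SMC1 was called at 26.4% and 34.3% of KO-only regions in the EV lists and at 58.1% and 71.2% in the KO lists. All values of one group lay below those of the other, with a difference (EV minus KO) of -34.3 points (exact permutation p = 0.33). The SMC1 lists themselves were longer in the knockout (70438 and 77587 peaks against 88886 and 96416), and at shared regions SMC1 was also called less often in the EV lists (86.7% and 93.0%) than in the KO lists (94.9% and 97.1%), a difference of -6.09 points. This was -2.96 points without SMC1 EV list 1, -9.23 without SMC1 EV list 2 and -1.29 with SMC1 lists of equal length. At shared regions of 200 to 400 bp the difference was -16.6 points. Taken relative to shared regions list by list, KO-only regions stood at -60.3 and -58.7 points in the EV lists and at -36.7 and -25.9 points in the KO lists (exact permutation p = 0.33). With SMC1 lists of equal length the difference at KO-only regions was -15.2 points, and with CTCF peaks at or above the median width it was -12.9 points. It kept its direction in every alternative run.

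SMC1 at EV-only regions had the opposite sign, but not under every choice of CTCF lists. The shares were 72.8% and 78.4% in the EV lists and 63.8% and 68.4% in the KO lists, 9.53 points higher with the vector (exact permutation p = 0.33). The sign turned when CTCF lists were made equally long (-6.62 points), when narrow CTCF peaks were left out (-1.41 points), without CTCF EV list 1 (-6.32 points) and without CTCF KO list 1 (-5.31 points). Without CTCF EV list 2 it was 0.116 points. With SMC1 lists of equal length it was 18.8 points. The higher share with the vector therefore belongs to the 320 regions of the rule and was not found for the sets of regions that those 4 choices give. Leaving out a CTCF list relaxes the rule, so those sets also hold regions that the full rule leaves out. The cuts to equal length and to wide peaks drop narrow KO peaks. Their EV-only sets can therefore hold regions called in the knockout in the full lists, and they do not check the 320 regions.

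**Figure D3:**
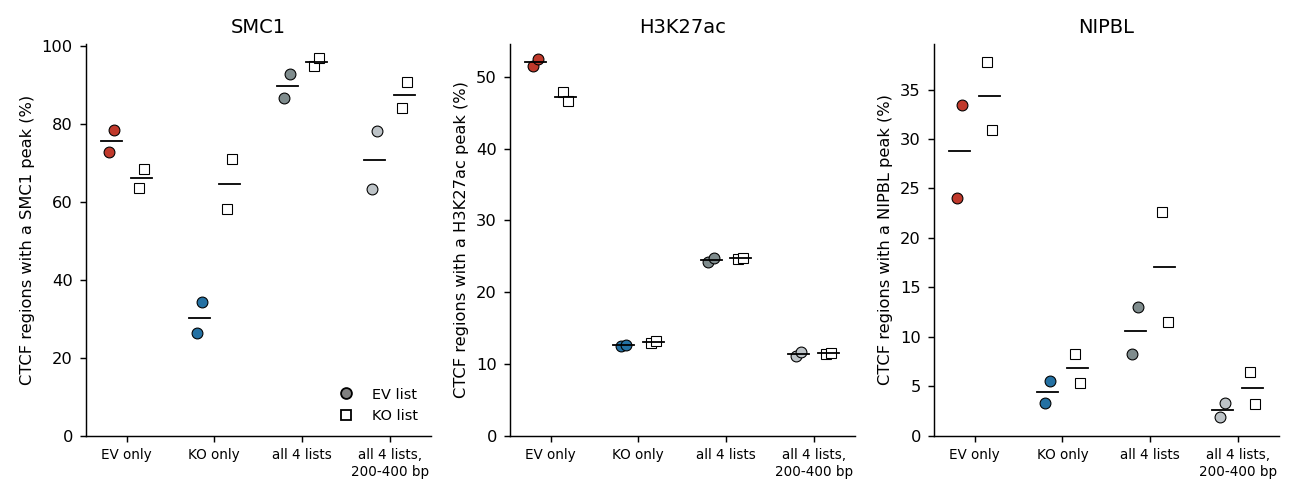
Share of CTCF regions that overlap a peak of SMC1, H3K27ac or NIPBL (vertical axes, %) in each list, with EV lists as filled circles, KO lists as open squares and bars at the mean of 2 lists. For SMC1 the KO-only regions run from 26.4% and 34.3% in the EV lists to 58.1% and 71.2% in the KO lists, while H3K27ac is near 13% at KO-only and near 50% at EV-only regions in all lists.

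At some members an SMC1 region was itself called in 1 condition alone. Of all 117362 merged SMC1 regions, 0.969% were in both EV lists only and 9.26% in both KO lists only, while 43.6% were in all 4. An SMC1 region that was EV-only overlapped 31 of 320 EV-only CTCF regions (9.69%), and a KO-only one overlapped 903 of 4427 KO-only CTCF regions (20.4%). Opposite pairings were 4 and 3. At shared CTCF regions the numbers were 26 EV-only and 893 KO-only SMC1 regions among 38454. SMC1 was called in no list at 42 EV-only (13.1%) and 1085 KO-only regions (24.5%), against 1.89% of shared regions.

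The 31 EV-only regions with SMC1 in the EV lists alone included distal and promoter positions. Near Mertk, which encodes a receptor kinase for uptake of dying cells (chr2:128698065-128698435), CTCF peaks were 363 bp in both EV lists and SMC1 peaks 382 and 379 bp, with neither called in the KO lists. The nearest shared CTCF region was 118181 bp away. At Usp27x, a deubiquitinase gene on the X chromosome, CTCF peaks were 319 and 463 bp and SMC1 peaks 247 and 291 bp. The same pattern was found where the nearest protein-coding gene was Hcfc2, Tmem97, Pls3, Actg1 or D10Wsu102e, at up to 35991 bp (Pls3).

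Of the 903 KO-only regions with SMC1 in the KO lists alone, those of highest width rank were near Gm8127 (CTCF 602 and 575 bp, SMC1 332 and 200 bp in the KO lists) and inside Slc9c1 (699 and 526 bp, SMC1 335 and 638 bp). Inside Lars2, which encodes mitochondrial leucyl-tRNA synthetase (chr9:123440611-123441211), CTCF peaks were 578 and 483 bp and SMC1 peaks 320 and 580 bp. Near Cstb, a gene for a cysteine protease inhibitor, CTCF was 462 and 697 bp and SMC1 616 and 910 bp, and H3K27ac was 4558, 7667, 2170 and 1984 bp in the 4 lists. The same CTCF and SMC1 pattern was found at or near Tuba1c, Apba1, Rin1, Wipf2 and Acad9, and 822354 bp from Olfm4, the nearest gene to its region.

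The SMC1 peaks over the 2 classes also differed in width. Over EV-only regions the median SMC1 peak was 628, 546, 766 and 714.5 bp in the order EV 1, EV 2, KO 1, KO 2, which placed it between percentiles 73.0 and 79.5 of its list. Over KO-only regions it was 321, 290, 322 and 331 bp, between percentiles 25.1 and 33.8, and over shared regions 429, 420, 496 and 535 bp. The 3 classes kept this order in every list.

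H3K27ac was most frequent at EV-only and least frequent at KO-only regions. It was called at 51.6% and 52.5% of EV-only regions in the EV lists and at 47.8% and 46.6% in the KO lists. The groups did not overlap, and the difference was 4.84 points (exact permutation p = 0.33). It was smaller without any 1 CTCF list (1.38 to 2.82 points) and with CTCF lists of equal length (1.52 points). At KO-only regions the shares were 12.5%, 12.7%, 12.9% and 13.2%, a difference of -0.474 points (exact permutation p = 0.33), and at shared regions 24.2%, 24.8%, 24.7% and 24.8%. Shared regions of 200 to 400 bp had H3K27ac in 11.1% to 11.7% of cases. H3K27ac was absent from all 4 lists at 45.0% of EV-only, 85.2% of KO-only and 70.9% of shared regions.

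Few changed CTCF regions lay in an H3K27ac region called in 1 condition alone. Of 49781 merged H3K27ac regions, 7.99% were EV-only, 4.83% KO-only and 47.9% in all 4 lists. EV-only CTCF regions overlapped 7 EV-only and 0 KO-only H3K27ac regions, and KO-only CTCF regions overlapped 13 and 14. These are 2.19% of the EV-only class and 0.294% and 0.316% of the KO-only class. Shared CTCF regions overlapped 335 EV-only (0.871%) and 316 KO-only (0.822%) H3K27ac regions.

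The 7 EV-only regions in an EV-only H3K27ac region included the Syngr1 promoter above. At the start site of Lpgat1, which encodes a lysophospholipid acyltransferase (chr1:191717799-191718164), CTCF peaks were 353 and 356 bp and H3K27ac peaks 1259 and 1331 bp in the EV lists, with none in the KO lists. SMC1 there was 332 and 587 bp in the EV lists and 0 and 200 bp in the KO lists, where 0 means that no peak was called. At Tspan9, a tetraspanin gene, CTCF was 302 and 314 bp and H3K27ac 2682 and 3615 bp in the EV lists alone. Inside Dock8, which encodes an exchange factor of lymphocyte migration, CTCF was 284 and 416 bp and H3K27ac 2965 and 2017 bp in the EV lists alone. Near Ifitm3, an antiviral membrane protein gene, CTCF was 200 bp in both EV lists and H3K27ac 9751 and 10454 bp. The remaining 2 were near Enc1 and inside Dclk2, and Dclk2 had H3K27ac in EV list 2 alone over the CTCF region itself.

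KO-only regions in a KO-only H3K27ac region included one 7468 bp from Efna1, a gene for an ephrin ligand (chr3:89288419-89288778), with CTCF of 321 and 354 bp and H3K27ac of 1604 and 1913 bp in the KO lists. Inside Tdrd7, a gene for a Tudor domain protein, CTCF was 286 and 312 bp and H3K27ac 2716 and 2098 bp. At 57713 bp from Cadm1, which encodes a cell adhesion molecule, CTCF was 312 and 270 bp and H3K27ac 1006 and 1091 bp. SMC1 was called in both EV lists too at Tdrd7 (608 and 338 bp) and Cadm1 (234 and 304 bp), and in EV list 2 alone at Efna1 (237 bp). Inside Akap12, a gene for a kinase anchoring protein, the H3K27ac peaks were 828 and 215 bp. The others named by rank were at or near Zcchc14, Ropn1, Cpxm1, Chrm3, Fam234a and Rnf157.

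Where H3K27ac was present, its peaks were broad and ranked high in all 3 classes. Over EV-only regions the median H3K27ac peak was 3081 and 3160.5 bp in the EV lists and 3071 and 3078 bp in the KO lists, and by the authors' −log10 q-value it stood between percentiles 82.0 and 83.5 of its list. Over KO-only regions it was 3169, 3162, 3488 and 3263 bp, between percentiles 78.1 and 80.3. Over shared regions it was between 2438.5 and 2570 bp, at percentiles 74.9 to 77.9. The median peak of the lists was between 1339 and 1564 bp. A wide peak is more likely to overlap any region, so picking peaks by overlap favours wide ones. No other set of positions was compared.

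Within each class, acetylated and unacetylated regions had different SMC1 shares. The 142 EV-only regions with H3K27ac in every list had SMC1 in 98.6%, 97.2%, 96.5% and 97.9% of cases, so nearly all had cohesin with and without TCF-1. A start site lay within 1 kb of 51.1% of them, and 40 of the 42 EV-only regions at a TCF-1 site (called in both TCF-1 lists of the EV cells) were among them. Such a site lay at 13.1% of EV-only, 1.197% of KO-only, 3.35% of shared and 3.43% of all regions. Of the 1288 shared regions at a TCF-1 site, 1255 also had H3K27ac in every list. Shared regions with H3K27ac in every list had SMC1 in 98.5%, 99.2%, 99.3% and 99.5% of cases. The link between these marks was thus not particular to the changed classes. The 144 EV-only regions with no H3K27ac had SMC1 in 45.8% and 59.0% of cases in the EV lists and in 33.3% and 40.3% in the KO lists. Only 2 of these were at a TCF-1 site, and 13 at a start site.

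KO-only regions showed the same division. The 479 acetylated in every list had SMC1 in 83.7% and 83.1% of cases in the EV lists and 93.9% and 96.0% in the KO lists. All 53 KO-only regions at a TCF-1 site were among these 479. The 3770 without H3K27ac had SMC1 in 17.6% and 26.7% of cases in the EV lists and 52.4% and 67.4% in the KO lists, and none was at a TCF-1 site. The difference in SMC1 was -11.6 points in the acetylated and -37.7 points in the unacetylated regions. At shared regions without H3K27ac it was -8.23 points. Whether the 2 kinds of KO-only region differ from each other was not tested.

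CTCF lists of NIH-3T3 fibroblasts gave a view of the same regions in another cell type. Untreated fibroblasts had CTCF at 20.3% and 25.3% of EV-only regions, 22.6% and 25.2% of KO-only regions and 76.2% and 78.3% of shared regions. Fibroblasts induced to express TCF-1 had it at 44.7% and 39.4% of EV-only, 62.1% and 57.3% of KO-only and 93.1% and 92.0% of shared regions. Shared regions of 200 to 400 bp had it in 45.6% and 49.3% of cases in the untreated and 83.2% and 81.1% in the induced lists, closer to the changed classes than all shared regions. The induced lists were longer (68306 and 64645 peaks against 38369 and 41236). Acetylated EV-only regions had fibroblast CTCF in 8.45% and 14.8% of cases in the untreated lists, and unacetylated ones in 30.6% and 34.7%.

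**Figure D4:**
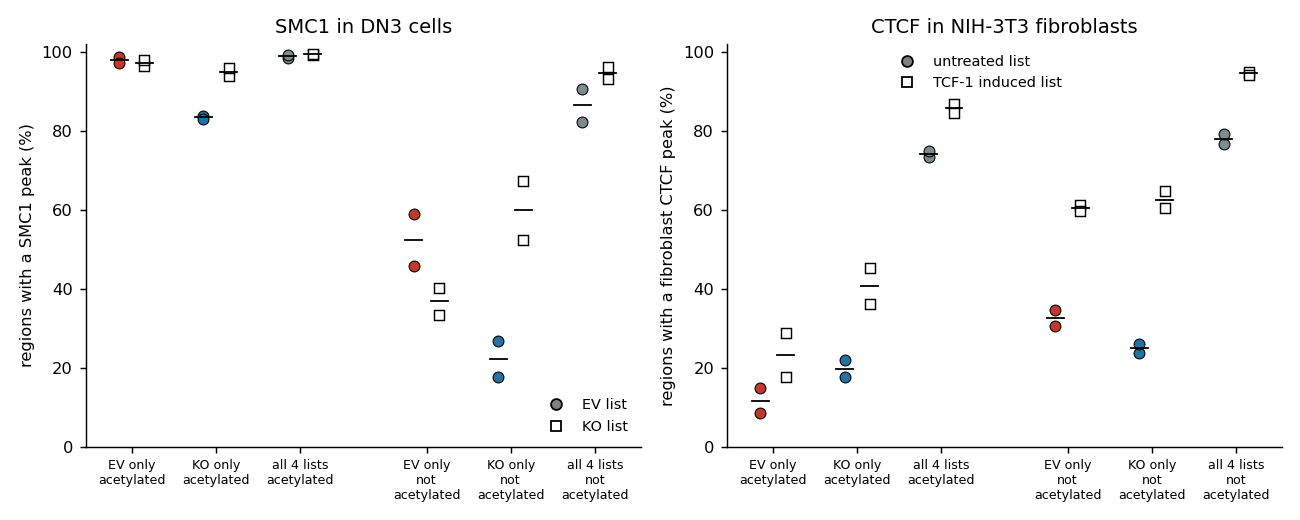
Share of regions with SMC1 in DN3 cells (left) and with CTCF in NIH-3T3 fibroblasts (right), in %, after splitting each class by H3K27ac in every list or in none. Filled circles are EV or untreated lists, open squares are KO or TCF-1 induced lists and bars are means of 2 lists. Acetylated EV-only regions have SMC1 in 96.5% to 98.6% of cases and fibroblast CTCF in 8.45% to 28.9%.

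NIPBL was called at 24.1% and 33.4% of EV-only regions in the EV lists and at 37.8% and 30.9% in the KO lists, and at 3.28%, 5.51%, 8.31% and 5.33% of KO-only regions. EV and KO values overlapped in both classes (exact permutation p = 0.667), and NIPBL lists ran from 9206 to 23951 peaks. The share at EV-only regions was above that at shared regions (8.24%, 12.97%, 22.6% and 11.5%) in every list. Of 27515 NIPBL regions, 0.251% were EV-only, 5.88% KO-only and 27.5% in all 4 lists. EV-only CTCF regions overlapped 1 and 6 of these, and KO-only CTCF regions 0 and 20 (0.452%). Shared CTCF regions overlapped 14 (0.0364%) and 388 (1.01%).

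Across 21887 protein-coding genes, with bodies extended by 10 kb, 347 (1.59%) had an EV-only region, 3231 (14.8%) a KO-only region and 14666 (67%) a shared region. Both kinds of changed region occurred at 77 genes. Of the genes with an EV-only region 54 had no shared region, and of those with a KO-only region 483. Gse1, a gene for a corepressor subunit, had 3 EV-only regions besides 32 shared ones, and Dis3l2, an RNA exonuclease gene, had 2 besides 6. Camk2n2, a kinase inhibitor gene, and the neighbouring Eef1akmt4, a methyltransferase gene, had 2 EV-only, 1 KO-only and 0 shared regions each, and the readthrough Eef1akmt4-ece2 had the same changed regions beside 3 shared ones. The genes with the highest counts of KO-only regions are given without a rate per length. Csmd1 and Robo2, neuronal genes of 1642848 and 1555468 bp, had 6 each, as did Tmem132c with 323965 bp, and Caln1 had 5.

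The number of KO-only regions varied between windows of 1 Mb, with no expected count per window computed. Of 2464 windows, 661 held none and 1 held 12, on chromosome 11 from 69 to 70 Mb. That window had 141 CTCF regions, so its KO-only share was 8.51%, beside 6.36% of all regions. From 86 to 87 Mb on chromosome 8, 10 of 32 CTCF regions (31.3%) were KO-only. From 127 to 128 Mb on chromosome 5, over Tmem132c and Tmem132d, 11 of 44 CTCF regions (25%) were KO-only. From 53 to 54 Mb on chromosome 11, a window with the T helper cytokine genes Il4, Il13 and Il5, 11 of 92 were KO-only. EV-only regions reached 5 in 1 window, on chromosome 1 from 181 to 182 Mb, and 4 of 22 on the X chromosome from 75 to 76 Mb. These windows were chosen after their counts were seen. By chromosome, KO-only regions made up between 5.06% and 7.33% of CTCF regions and EV-only regions between 0.271% and 0.774%.

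Genes of 12 lists on T cell biology, looping and other lineages mostly had shared regions. Of 161 listed genes, 8 had an EV-only region (4.97%), 22 a KO-only region (13.7%) and 134 a shared region (83.2%), beside 1.59%, 14.8% and 67% of all genes. All 18 T lineage regulators had a shared region, 1 had an EV-only region and 4 a KO-only region. Tcf7, Ctcf and Lef1 had 5, 3 and 6 shared regions and no changed region.

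The 4 T lineage regulators with a KO-only region were Runx1, Myb, Satb1 and Tcf12. At the start site of Runx1, a core T cell and blood factor (chr16:92697168-92697895), CTCF was 497 and 478 bp in the KO lists. H3K27ac there was 8122, 7948, 7709 and 7902 bp and SMC1 3518, 1371, 3702 and 4712 bp in the 4 lists. A shared CTCF region lay 446 bp away. The region 6635 bp from Myb, a progenitor factor gene, had CTCF of 289 and 301 bp with no H3K27ac in any list. Its SMC1 was 0 and 401 bp in the EV lists and 721 and 844 bp in the KO lists. Next to Satb1, a genome organiser of thymocytes, CTCF was 239 and 202 bp, and inside Tcf12, which encodes the E protein HEB, 221 and 313 bp. At Tcf12, SMC1 was called in the KO lists alone (313 and 239 bp). The one T lineage regulator with an EV-only region was Themis, which encodes a signalling protein of thymocyte selection. Its start site had CTCF of 200 and 520 bp in the EV lists, with H3K27ac of 9356, 9316, 14057 and 9367 bp.

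Of 22 T cell receptor and recombination genes, 0 had an EV-only and 2 a KO-only region (9.09%), beside 1.59% and 14.8% of all genes. Inside Cd247, which encodes the CD3 zeta chain (chr1:165844241-165844609), CTCF was 313 and 346 bp under a broad H3K27ac peak of 14775, 19211, 20997 and 16352 bp. Near Il2ra, the gene of the interleukin 2 receptor alpha chain, CTCF was 317 and 221 bp, and SMC1 was 585, 218, 1690 and 3436 bp. Both SMC1 values of the KO lists lay above those of the EV lists, an order whose share over all regions was not counted. H3K27ac there was 31750, 5678, 15005 and 6448 bp, which overlapped between the groups.

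Among 15 cohesin and CTCF genes, 5 had a KO-only region (33.3%, beside 14.8% of all genes) and 1 an EV-only region (6.67%, beside 1.59%). A shared region was found at 12 of the 15. Longer genes have more room for a region, gene length was not matched, and the difference from all genes was not tested. Smc3, a core ring subunit, had 2 KO-only regions, with CTCF of 275 and 333 bp inside the gene and 275 and 200 bp beyond its end. The regions inside Stag1, a ring subunit gene, Pds5b, a gene of a cohesin regulator, and Esco2, a gene of a cohesin acetyltransferase, had CTCF peaks of 200 to 341 bp and no H3K27ac in any list. Nipbl had a KO-only region (288 and 226 bp) and an EV-only region (223 and 765 bp). The EV-only one stood under H3K27ac of 8880, 8584, 8458 and 10613 bp and was 150 bp from a shared region.

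Bcl2, a survival gene of lymphocytes, held changed regions of both kinds. An EV-only region 1603 bp from its start (chr1:106712369-106712687) had CTCF of 235 and 319 bp and neither SMC1 nor H3K27ac in any list. A KO-only region over the start site (chr1:106713995-106714372) had CTCF of 378 and 211 bp, with SMC1 of 642, 892, 924 and 927 bp and H3K27ac of 1188, 1413, 1298 and 1238 bp. The cell cycle inhibitor genes Cdkn1b and Cdkn2a each had a KO-only region and no shared one. At Cdkn1b the region lay 685 bp from the start under SMC1 and H3K27ac in every list, and at the Cdkn2a start site no list had either mark.

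The remaining lists gave few members, to be read beside 1.59% of all genes with an EV-only and 14.8% with a KO-only region. Wnt feedback genes had 2 EV-only (Notum and Lgr5) and 2 KO-only (Notum and Znrf3) genes of 12. Imprinted and clustered loci had 2 EV-only genes of 16, Pcdha1 and Pcdhga1 of the clustered protocadherins, and 0 KO-only. Notch targets, B lineage and natural killer genes had 0 EV-only and 1 KO-only gene each of 10 (Nrarp, Cd79a and Id2), and myeloid genes 0 and 2 (Cebpa and Itgam). Fibroblast genes had 1 of each of 12 (Fn1 EV-only and Lox KO-only), and none of the 14 housekeeping genes had a changed region. Regions were assigned to listed genes within bodies extended by 10 kb, so another gene can be closer. The Fn1, Nrarp and Cd79a regions lay inside Atic, Tor4a and Arhgef1, and the KO-only region of Notum was nearest to Aspscr1.

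The identity of the line was checked on H3K27ac. All 9 DN3-stage T precursor marker genes carried H3K27ac in every list, with a summed length of 120 to 127 kb. Fibroblast markers had 0 of 5 in every list, B lineage 1 or 2 of 4 (Pax5 and Ebf1 at 0), myeloid 1 of 4 and natural killer 1 of 4.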

How the data were processed

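Peak lists of CTCF, SMC1, NIPBL, H3K27ac and TCF-1 ChIP-seq were used. Bowtie2, MACS2, bedtools and mm10 are named per the submitters' processing notes. Versions, settings and controls were not given in the sources used here. CTCF, SMC1 and TCF-1 lists hold positions only. For NIPBL and H3K27ac the authors also deposited, per peak, −log10 p- and q-values, a score and a fold enrichment. The deposited −log10 q-value was used only to rank peaks within a list. The score and fold the authors deposited were not used otherwise.

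CTCF peaks were merged (gap 0), which gave 69615 regions here and with bedtools 2.31.1. Groups came from the labels. Shares were compared by 2-sided exact permutation over lists. Named regions were the 10 per class widest by rank and up to 10 per class with a matching SMC1 or H3K27ac change. Each of these was named by the gene it overlaps or the nearest. Also named were the 5 genes per class with most regions and members of the 12 gene lists (161 of 162 entries matched). Such genes were given the regions within their body extended by 10 kb. Lmcd1, Sar1b, Nmnat1, Mlh3 and Was were named for their motif. Il4, Il13, Il5 and Tmem132d were named after their counts were seen. The members and the lists were chosen with earlier results of these data known. Positions, promoters and names came from RefSeq (GRCm38.p6).

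Alternatives were merging across 500 bp, lists of equal length, peaks at or above the median width, an overlap of 50%, leaving out each list, a replicate block, start sites within 5 kb and a stricter motif. Others were added after seeing the data. The code was tested on simulated data of 20000 regions, and the class counts of 300 and 2000 planted regions were recovered (100%). Each planted region stood apart and was called in every list of its class. The simulation therefore checks the code and says nothing about missed calls or unequal lists. Work was done in pandas 2.3.3, numpy 2.4.6, scipy 1.17.1 and matplotlib 3.10.9 under Python 3.11.15. Read totals were not used, so depth sets no interval here. Some genes named by this rule are not reported here.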

Additional observations from a re-analysis of the deposited data

Results flagged for a closer look

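The number of CTCF peaks per list moved in opposite directions with TCF-1 in the 2 cell lines. In DN3 cells the lists with TCF-1 had -10779.5 peaks relative to those without it (means of 2 lists each), and each list with TCF-1 was shorter than each list without. This was -5022 without EV list 1, -16537 without EV list 2 and -7177.5 without KO list 1. In NIH-3T3 fibroblasts the lists with induced TCF-1 had 26673.0 more peaks than the untreated lists. The difference between the cell lines was not tested.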

How the results depend on the processing

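Of the values recomputed under the alternatives, 7 reversed and 38 moved beyond the limits used. Among the other 156, differences between EV and KO were judged by direction alone and could change in size. Some of the 156 could not change. The replicate block alters the p-value and not the difference, and a limit to chromosomes 1 to 19 and X repeated the main values. The count of 156 is thus no measure of stability. With CTCF lists of equal length there were 1246 EV-only and 1322 KO-only regions. At or above the median peak width there were 2235 KO-only and 18069 shared regions. Both cuts drop narrow peaks, so a region can join a changed class because a call of the other condition was dropped. Leaving out 1 list at a time gave 479 to 3127 EV-only and 5121 to 11771 KO-only regions. The rule then asks for fewer calls, so these counts include regions that the full rule leaves out. SMC1 at EV-only regions (EV minus KO) reversed to -6.62 points with equal CTCF lists and -1.41 points above the median width, and ranged from -6.32 to 3.65 points when single CTCF lists were left out (-6.32 without EV list 1, -5.31 without KO list 1) and from 6.72 to 12.3 points when single SMC1 lists were. At KO-only regions the range was -33.6 to -26.7 points without single CTCF lists and -40.8 to -27.8 points without single SMC1 lists. H3K27ac at shared regions ranged from -0.511 to 0.0637 points without single mark lists and reversed without EV list 1. NIPBL at EV-only regions reversed to 0.313 points with mark lists of equal length, and median CTCF spacing per list to -801.5 bp with CTCF lists of equal length. The cause of these reversals was not tested.

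A start site within 5 kb was found for 41.5% of EV-only, 17.7% of KO-only and 25.7% of shared regions. With ends of gene bodies within 1 kb the shares were 8.72% for KO-only and 14.4% for shared regions. With CTCF lists of equal length the start site shares were 18.3% for EV-only and 9.08% for KO-only, the spacing medians 6882.5, 10172.5 and 6706 bp and the width medians 345, 388 and 600 bp for EV-only, KO-only and shared regions. Fibroblast CTCF was then found at 30.6%, 32.6%, 67.2% and 63.1% of EV-only, 36.0%, 41.1%, 73.9% and 71.5% of KO-only and 82.3%, 84.1%, 95.6% and 94.7% of shared regions. The stricter motif was found in 0%, 0.877% and 4.05% of the windows.

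Whether list numbers pair the samples is not known. Across 38454 shared regions the width deviations of same-numbered CTCF lists had r = -0.0426, and for calls r was 0.0831. Values this small for CTCF alone cannot settle it. With the replicate block the SMC1 difference at KO-only regions was again -34.3 points, with an exact p = 0.5, the smallest that 2 pairs allow.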
